A study of Mus musculus with 26 samples.

Results

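The enzymes of xenobiotic metabolism were followed in mouse colon before and during colitis-associated tumour formation. The members were the protein-coding genes of GRCm38 whose symbols belong to the cytochrome P450 families Cyp1, Cyp2, Cyp3 and Cyp4, to the UDP-glucuronosyltransferase families Ugt1 and Ugt2, or to the glutathione S-transferase classes Gsta, Gstm, Gsto, Gstp and Gstt. Membership was set by symbol alone, though the families were chosen with earlier results of these data known. This gave 119 of the 35975 genes in the tables. Phase 1 held 80 genes (3 Cyp1, 48 Cyp2, 9 Cyp3 and 20 Cyp4) and phase 2 held 39 (9 Ugt1a, 10 Ugt2, 4 Gsta, 7 Gstm, 2 Gsto, 3 Gstp and 4 Gstt). RNA was read from 26 colon libraries of male C57BL/6J wild-type mice that were about 10 weeks old at the start. One diet was standard and the other contained GW3965, a synthetic agonist of the liver X receptors. AOM (azoxymethane, a carcinogen) was given once at 10 mg per kg body weight. It was followed by DSS (dextran sulphate sodium, which injures the colonic epithelium) in the drinking water. The full course had 3 cycles of DSS, and the mice of days 22 and 43 had fewer. The 8 groups were the standard and GW3965 diets at days 22, 43 and 70 after AOM, with 3 libraries each, and at day 0, with 4 libraries each. The day 0 groups had neither AOM nor DSS and joined mice after 22 and after 43 days of the diet. One day 0 library carries GW3965 in its title and the standard diet in its diet label, and was placed by its title. Without it the members called on the GW3965 diet numbered 6 for day 22, 0 for day 43 and 27 for day 70. The share of all genes called in that fit is not given. No call between the diets was made in untreated colon with or without this library.

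Phase 1 enzymes, mainly the cytochromes P450 of the endoplasmic reticulum, oxidise lipophilic compounds, which include drugs, dietary chemicals, steroids and fatty acids. Phase 2 enzymes join the product to glucuronic acid (UDP-glucuronosyltransferases) or to glutathione (glutathione S-transferases), so that it can be exported by transporters of the ABC family. In the colon these enzymes are made mainly by the surface epithelium, and their genes are read by nuclear receptors and by the stress factor NRF2.

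Each library held between 18195345 and 41522204 estimated counts. The share of counts on ribosomal protein genes ran from 5.33% to 6.51% at day 0 and from 10.0% to 18.6% at day 43, and it entered the model as a covariate. RNA integrity was lowest at day 43, where replicate 1 of the standard diet had a RIN of 2.6. At days 0, 22 and 43 the mice of a diet and day came from 1 cage, so that diet and cage cannot be told apart there. Untreated mice and those of days 22 and 43 also came from different cages, so that AOM–DSS and cage cannot be told apart at these days either. The mice of day 70 came from other cages again and had 70 days of the diet, while no untreated group had more than 43. AOM–DSS at day 70 therefore cannot be told apart from cage, longer time on the diet or higher age. A legend of the study counts mice for these data while its reporting notes describe pools of mice, and the p-values measure the spread between these libraries. The libraries were not alike in tissue: the summed level of 10 stratified (squamous) epithelium markers was 19.8 to 63.7 TPM at day 0, 2894, 4953 and 4859.6 TPM at day 70 on the standard diet, and 20368, 96.1 and 12309 TPM at day 70 on the GW3965 diet. Replicate 1 of the GW3965 diet at day 70 also held 21882 TPM of 6 skeletal muscle markers. The 10 colonocyte markers summed to 2413 to 5408 TPM at day 0 and to 247 to 1666 TPM at day 70. In tissue of this kind, fewer cells of a type and less RNA per cell cannot be told apart.

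In terms of TPM (a transcript abundance that allows for transcript length), phase 2 transcripts outnumbered those of phase 1. The phase 2 genes summed to 1611 ± 339.9 TPM (mean ± SD, n = 4) at day 0 on the standard diet and the phase 1 genes to 663 ± 120.3 TPM. Gsto1, an omega-class transferase with thioltransferase activity, had the highest mean level over the 26 libraries, 717 TPM, and ranged from 166 to 3671 TPM. It was followed by the pi-class gene Gstp1 (187 TPM), the mu-class gene Gstm1 (126 TPM), the alpha-class gene Gsta4 (124 TPM) and Cyp2d34 (121 TPM). Ugt2b34 (83.6 TPM), Ugt1a7c (38.5 TPM), Gstt2 (37.5 TPM), Cyp4f16 (27.8 TPM) and Cyp3a13 (23 TPM) led their families. The Cyp1 genes, classical targets of the aryl hydrocarbon receptor, were near the limit of detection, with a mean of 0.156 TPM for Cyp1b1 and 0.153 TPM for Cyp1a1. Of the 119 members, 12 had no count in any library, 48 had counts in all 26, and 62 passed the filter on low counts, 36 in phase 1 and 26 in phase 2. The 57 others had mean levels of at most 0.554 TPM and were not tested. They included 8 of the 9 Cyp3 genes, 26 of the 48 Cyp2 genes and 8 of the 10 Ugt2 genes.

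Between day 0 and day 70 the summed levels moved apart. The Cyp2 family held 489 ± 97.3 TPM at day 0 and 186 ± 59.8 TPM at day 70 on the standard diet, and 539 ± 40 and 285 ± 122 TPM on the GW3965 diet. Cyp3, which was Cyp3a13 almost alone, held 48.4 ± 17.7 TPM at day 0 and 9.05 ± 3.26 TPM at day 70 on the standard diet. The mu class went from 478 ± 89.1 to 253 ± 9.28 TPM, and Ugt2 from 167 ± 33.6 to 60.2 ± 15.2 TPM. In the opposite direction, the alpha class went from 85.3 ± 30.1 to 419 ± 50.3 TPM and the omega class from 421 ± 117 to 1467 ± 714 TPM on the same diet. Phase 2 as a whole stood at 2608 ± 765 TPM at day 70, against 1611 ± 339.9 TPM at day 0. Without Gsto1 alone it was 1142 ± 52.9 TPM at day 70 and 1191 ± 224 TPM at day 0, and without Gsto1 and Gsta4 846 ± 66.3 and 1164 ± 218 TPM. The course between these days was not steady on the standard diet. At day 22 the omega class was at 202 ± 42.9 TPM and phase 2 as a whole at 859 ± 141 TPM. The mu class was at 122 ± 32.8 TPM at day 43. These sums carry no test.

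**Figure D1:**
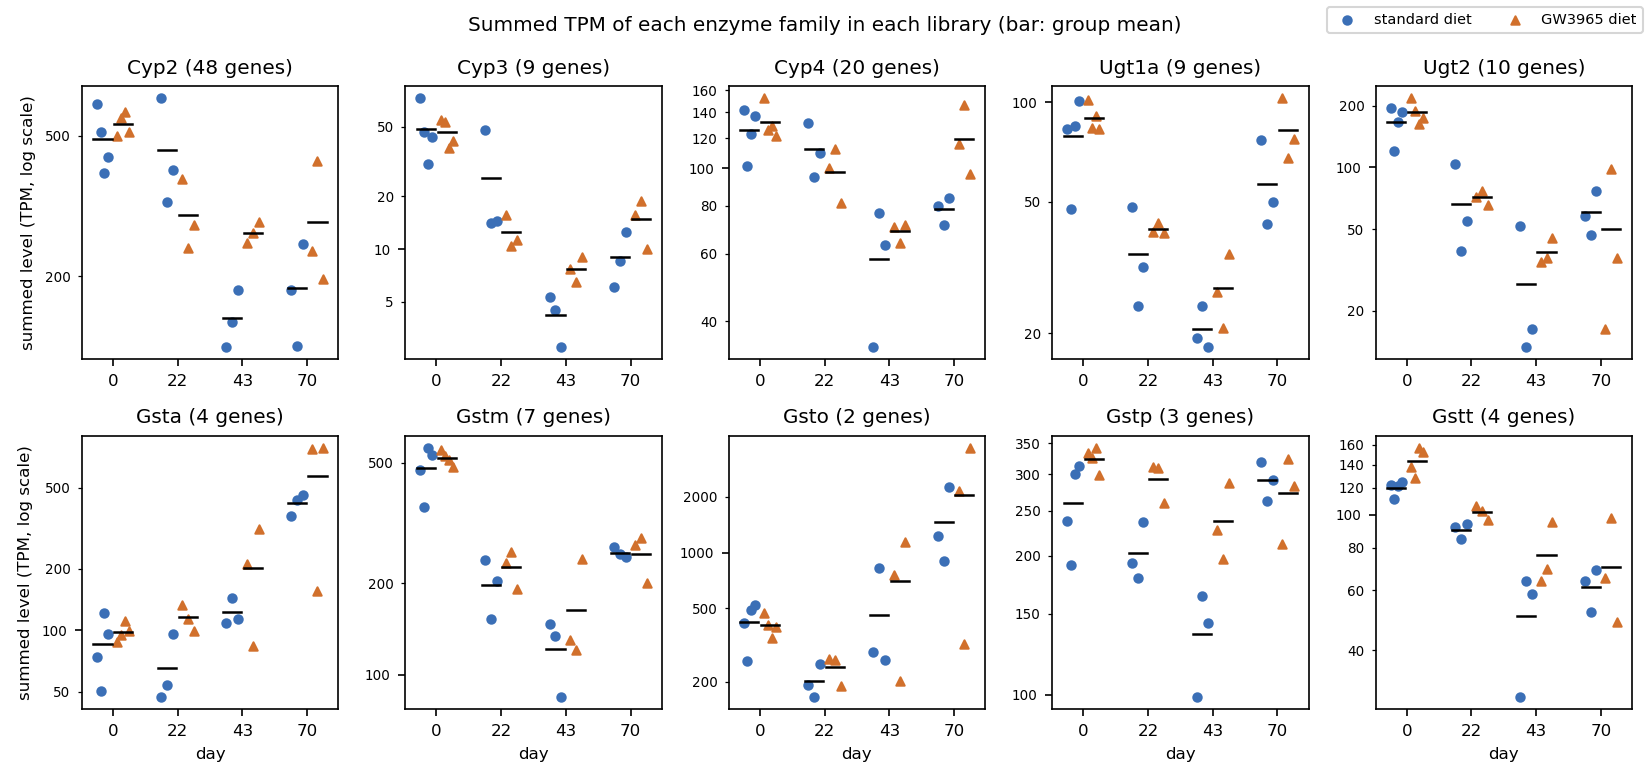
Summed TPM (log scale) of 10 enzyme families against day, with 1 point per library, blue circles for the standard diet, orange triangles for the GW3965 diet, and bars for group means. The Cyp2, Cyp3, Gstm, Gstt and Ugt2 sums are lower at day 70 than at day 0 in their means, and the Gsta and Gsto sums are higher, with 1 low GW3965 library at day 70.

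The first question was how the members changed from untreated colon to day 70, the last time point, which has no untreated group of the same diet time. On the standard diet 11 of the 62 tested members rose and 29 fell, where 18.1% of the 17063 genes tested rose and 15.1% fell. The median log2 fold change of the members was -0.83, against 0.03 for all genes. On this diet the falling members were mostly cytochromes. Of the 22 tested Cyp2 genes 16 fell and 4 rose, of 11 Cyp4 genes 4 fell and 1 rose, and Cyp3a13 fell. Among the transferases, 5 of 7 mu-class and 2 of 3 theta-class genes fell, and all 4 alpha-class genes rose. With GW3965 10 members rose and 20 fell, against 14.4% and 7.43% of all genes, with medians of -0.79 and 0.10. The falling members there were 8 of the 36 tested phase 1 genes and 12 of the 26 tested phase 2 genes, so they were not mostly cytochromes. The diets share no library in these comparisons, but both come from the same fit, with a shared estimate of the spread and a shared ribosomal term. The 8 genes that rose on both diets were 72.7% of those on the standard diet and 80% of those on the GW3965 diet. These 8 include Cyp2a5, Cyp2b10 and Gsta2, which were near the floor at day 0 and passed the filter through later libraries. For the falling genes, the 16 in common were 55.2% and 80%, and no gene had opposite calls. The overlap over all genes was not computed, so these shares are not shown to be particular to the members. The 30 calls on the GW3965 diet became 16 without replicate 3 of day 70, and 1 when only the 2 groups compared were in the fit. The shares of all genes called in these fits are not given, so the drop is not shown to be particular to the members.

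**Figure D2:**
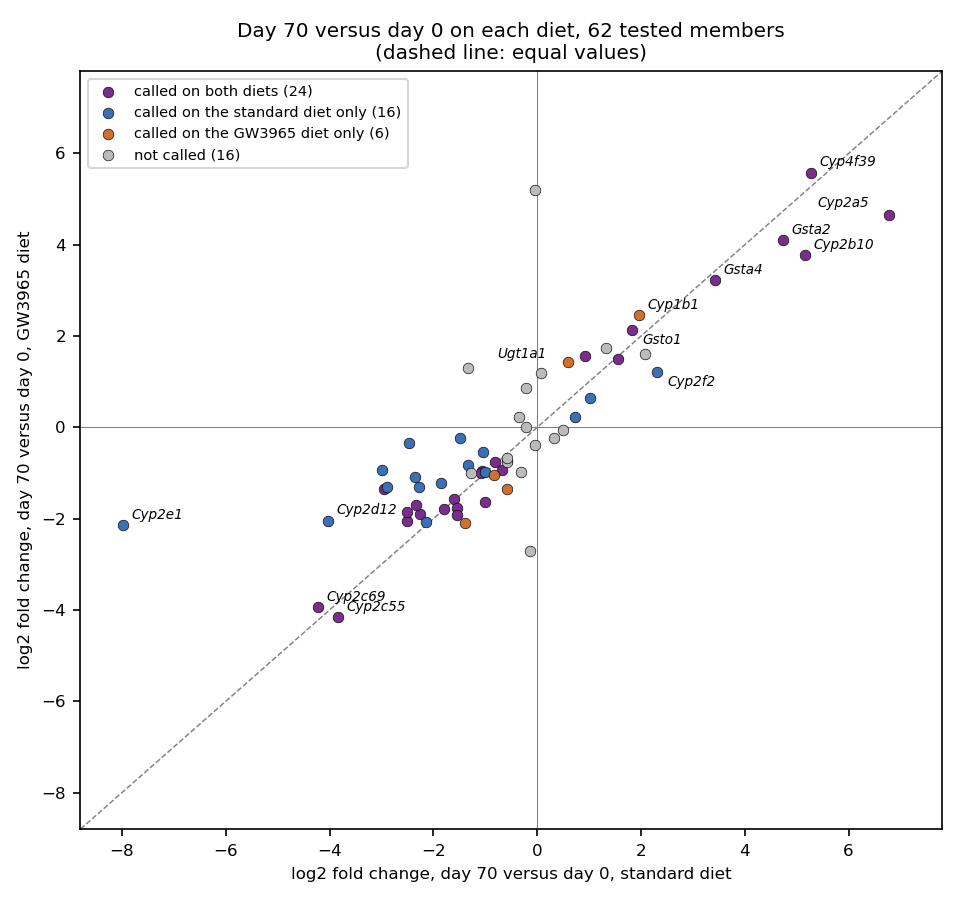
Log2 fold change of day 70 against day 0 on the standard diet (x axis) and on the GW3965 diet (y axis) for the 62 tested members, coloured by where the adjusted p was under 0.05, with a dashed line at equal values. The 24 members called on both diets lie at the lower left and upper right, and Cyp2e1 lies farthest from the line.

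The Cyp2c genes gave some of the largest losses. Cyp2c55, a colonic P450 that oxidises arachidonic and linoleic acid, measured 26.2, 40.3, 8.26 and 43.2 CPM (normalized counts scaled to a common library total) at day 0 on the standard diet and 4.67, 3.16 and 1.86 CPM at day 22. It stood at 1.21, 4.5 and 1.61 CPM at day 43, and its last values, of day 70, were 2.73, 0.958 and 2.33 CPM. Every AOM–DSS library of this diet lay below its 4 day 0 libraries. The day 70 change was significant (log2 fold change -3.84, SE 0.70, adjusted p = 0.000541). Under GW3965 the values were 11.8, 22.5, 46 and 25.1 CPM at day 0 and 1.23, 1.73 and 2.68 CPM at day 70 (log2 fold change -4.16, SE 0.72, adjusted p = 0.000569). The lowest values of all were those of day 22 on the GW3965 diet, with 3, 0 and 5 counts in its 3 libraries. Cyp2c69 went from 2.85 ± 0.203 to 0.151 ± 0.148 CPM (log2 fold change -4.22, SE 0.87, adjusted p = 0.00142) and Cyp2c68 from 133 ± 15.4 to 23.3 ± 12.9 CPM (log2 fold change -2.52, SE 0.54, adjusted p = 0.00184). Both also fell on the GW3965 diet (log2 fold changes -3.93 and -2.05). The GW3965 call of Cyp2c68 was lost without replicate 3 of day 70. Cyp2c65 did not pass the test at day 70 (log2 fold change -0.58, adjusted p = 0.494), and its day 70 values of 3.36, 0.61 and 1.4 CPM spanned those of day 0, 2.73, 2.46, 2.43 and 2.87 CPM. All of these genes lie in 1 cluster of 14 members on chromosome 19 (chr19:39007019-40187333, GRCm38), of which 5 were tested. Cyp2c68 and Cyp2c69 are close copies of Cyp2c40, and only 38% and 35.1% of the 31-base words of their transcripts occur in no other gene, so that their counts could be split between copies, whereas 96.6% of the words of Cyp2c55 are its own.

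Because these neighbours moved in one direction at day 22 or day 70, the 250 bases before their RefSeq starts (GRCm38.p6) are shown, beside those of 2 alpha-class genes and of Gsto1, which rose. Capitals mark the matches to motifs that were searched on both strands: CAAAGTCCA (a core of the HNF4 motif), TGACNNNGC (the antioxidant response element) and TNGCGTG (the xenobiotic response element).
Cyp2c55 (chr19:39006769-39007018, plus strand): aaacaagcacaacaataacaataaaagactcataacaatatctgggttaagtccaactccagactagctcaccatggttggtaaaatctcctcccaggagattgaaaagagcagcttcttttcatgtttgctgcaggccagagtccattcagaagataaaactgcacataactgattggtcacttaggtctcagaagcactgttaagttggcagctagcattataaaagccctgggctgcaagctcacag
Cyp2c65 (chr19:39060756-39061005, plus strand): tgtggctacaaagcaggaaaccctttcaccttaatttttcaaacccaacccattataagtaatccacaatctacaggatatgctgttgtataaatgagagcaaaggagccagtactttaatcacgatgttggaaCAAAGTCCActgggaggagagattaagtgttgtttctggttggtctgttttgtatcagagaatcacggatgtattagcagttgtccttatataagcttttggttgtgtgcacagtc
Cyp2c68 (chr19:39741102-39741351, minus strand): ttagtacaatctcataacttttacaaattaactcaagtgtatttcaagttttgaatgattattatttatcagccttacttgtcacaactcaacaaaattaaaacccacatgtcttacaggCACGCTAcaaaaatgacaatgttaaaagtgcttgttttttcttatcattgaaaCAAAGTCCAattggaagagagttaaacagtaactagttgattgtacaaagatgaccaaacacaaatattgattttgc
Cyp2c69 (chr19:39886770-39887019, minus strand): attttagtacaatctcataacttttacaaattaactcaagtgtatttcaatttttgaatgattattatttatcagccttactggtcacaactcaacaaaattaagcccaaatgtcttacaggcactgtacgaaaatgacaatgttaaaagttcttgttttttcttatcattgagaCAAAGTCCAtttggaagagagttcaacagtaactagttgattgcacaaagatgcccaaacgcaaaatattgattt
Gsta2 (chr9:78347146-78347395, minus strand): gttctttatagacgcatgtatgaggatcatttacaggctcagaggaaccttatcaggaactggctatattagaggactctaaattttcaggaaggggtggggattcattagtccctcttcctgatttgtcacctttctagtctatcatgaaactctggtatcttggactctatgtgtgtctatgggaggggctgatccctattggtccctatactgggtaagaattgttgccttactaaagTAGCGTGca
Gsta3 (chr1:21240335-21240584, plus strand): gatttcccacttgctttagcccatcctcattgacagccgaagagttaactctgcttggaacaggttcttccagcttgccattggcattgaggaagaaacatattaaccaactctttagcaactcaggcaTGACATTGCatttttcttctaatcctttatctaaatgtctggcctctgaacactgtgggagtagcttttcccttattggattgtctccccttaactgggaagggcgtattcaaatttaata
Gsto1 (chr19:47854723-47854972, plus strand): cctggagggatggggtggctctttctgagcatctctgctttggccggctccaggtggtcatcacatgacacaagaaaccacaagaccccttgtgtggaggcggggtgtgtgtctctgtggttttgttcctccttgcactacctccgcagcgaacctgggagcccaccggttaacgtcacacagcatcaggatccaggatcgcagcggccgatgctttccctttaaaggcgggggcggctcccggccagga
The HNF4 letters were present in 10 of the 101 members found in the promoter table (9.90%) and in 0.381% of its 27025 promoters. All 10 lay in the Cyp2c cluster of chromosome 19 or in a Cyp3a cluster of chromosome 5, of which no gene was tested. They are related neighbours, so that the 10 matches need not be independent. They were found 116 bases before the start of Cyp2c65, 77 before that of Cyp2c68 and 75 before that of Cyp2c69, counted to the first base of the match. Cyp2c68 and Cyp2c69 had equal bases at 65.6% of the 250 positions after a shift of 2 bases, so that these matches are not independent. Cyp2c68 also held the XRE letters, on the minus strand of the promoter, and they stood 9 bases before the start of Gsta2. The ARE letters stood 121 bases before the start of Gsta3. ARE letters were found in 3 members (2.97%) and in 10.2% of all promoters, and XRE letters in 3 members and in 4.16%. A core of the HNF1 motif was searched as well and was found in 6 members (5.94%) and in 0.411% of all promoters, but in none of the 7 sequences shown. Some of these members were also neighbours, in the Ugt1a and Cyp4a clusters. The 2 matches in Cyp2c68 did not overlap. The Gsto1 sequence was richer in G and C (60%, with 12 CpG pairs) than that of Cyp2c55 (42.4%, with 0), the median over all promoters being 52%. A match describes the letters and does not show binding, and a sequence with no capitals says only that these letters are not in this window.

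The Cyp2d cluster on chromosome 15 (chr15:82370527-82794294) fell as a block on the standard diet, with calls for all 6 tested members (Cyp2d9, Cyp2d10, Cyp2d12, Cyp2d22, Cyp2d26 and Cyp2d34). Cyp2d genes are the mouse relatives of human CYP2D6, which oxidises many drugs. Cyp2d22 had the smallest p of all members, with 20.3, 20.6, 12.4 and 13.3 CPM at day 0 and 1.42, 2.66 and 2.33 CPM at day 70 (log2 fold change -2.95, SE 0.42, adjusted p = 9.61e-05). Cyp2d12 went from 36.9, 40.5, 10 and 22.2 CPM to 0.894, 1.39 and 2.75 CPM (log2 fold change -4.04, SE 0.83, adjusted p = 0.00132). For both genes the day 70 libraries lay below all day 0 libraries. Cyp2d34, the most abundant cytochrome, stood at 136 ± 41.2 CPM at day 0, 262 ± 67.3 CPM at day 22 and 38.7 ± 13 CPM at day 70 (log2 fold change -1.85, SE 0.45, adjusted p = 0.00402). Of these, Cyp2d22 and Cyp2d26 also fell on the GW3965 diet (log2 fold changes -1.34 and -1.91, adjusted p = 0.0217 and 0.00457). Cyp2d12 and Cyp2d34 missed the threshold there (-2.04 and -1.21, adjusted p = 0.0593 and 0.0608), with day 70 values of 1.02, 17.9 and 2.26 CPM for Cyp2d12 that differed widely between libraries. The GW3965 call of Cyp2d22 was lost without replicate 3 of day 70 or the day 0 library of 43 diet days, replicate 1. Only 49.8% of the words of Cyp2d10 are its own.

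Cyp3a13, the only tested gene of the family that includes the pregnane X receptor targets, measured 163, 115, 67.4 and 94.1 CPM at day 0 and 13, 16.4 and 27.4 CPM at day 70 on the standard diet. The groups did not overlap (log2 fold change -2.52, SE 0.42, adjusted p = 0.000269). Under GW3965 it went from 128, 107, 82.3 and 88 to 28.4, 37.9 and 21.3 CPM (log2 fold change -1.85, SE 0.41, adjusted p = 0.00371). Cyp2s1, an extrahepatic P450 of epithelia, fell on both diets (-1.61 and -1.58, adjusted p = 0.00298 and 0.00649). In the Cyp4f cluster of fatty acid hydroxylases, Cyp4f14 fell on the standard diet from 33.4 ± 5.36 to 4.51 ± 2.32 CPM (log2 fold change -2.90, SE 0.65, adjusted p = 0.00236) and Cyp4f13 on both (-1.07 and -0.96), while Cyp4f16 did not pass the test (-0.58, adjusted p = 0.0986). Cyp4v3 and Cyp2j9, which also act on fatty acids, fell on the standard diet (log2 fold changes -1.04 and -1.48). Cyp2e1, which oxidises ethanol and AOM itself, varied most at day 0, with 24.6, 22, 6.68 and 0.149 CPM, and had 0, 3 and 0 counts in the standard libraries of day 70 (adjusted p = 0.0183). That call was lost when any of the 3 day 70 libraries was left out. Adipocyte markers summed to 46.3 to 161 TPM in the same day 0 libraries and to 14.5 to 49.1 TPM at day 70, and their part in the Cyp2e1 result was not tested.

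**Figure D3:**
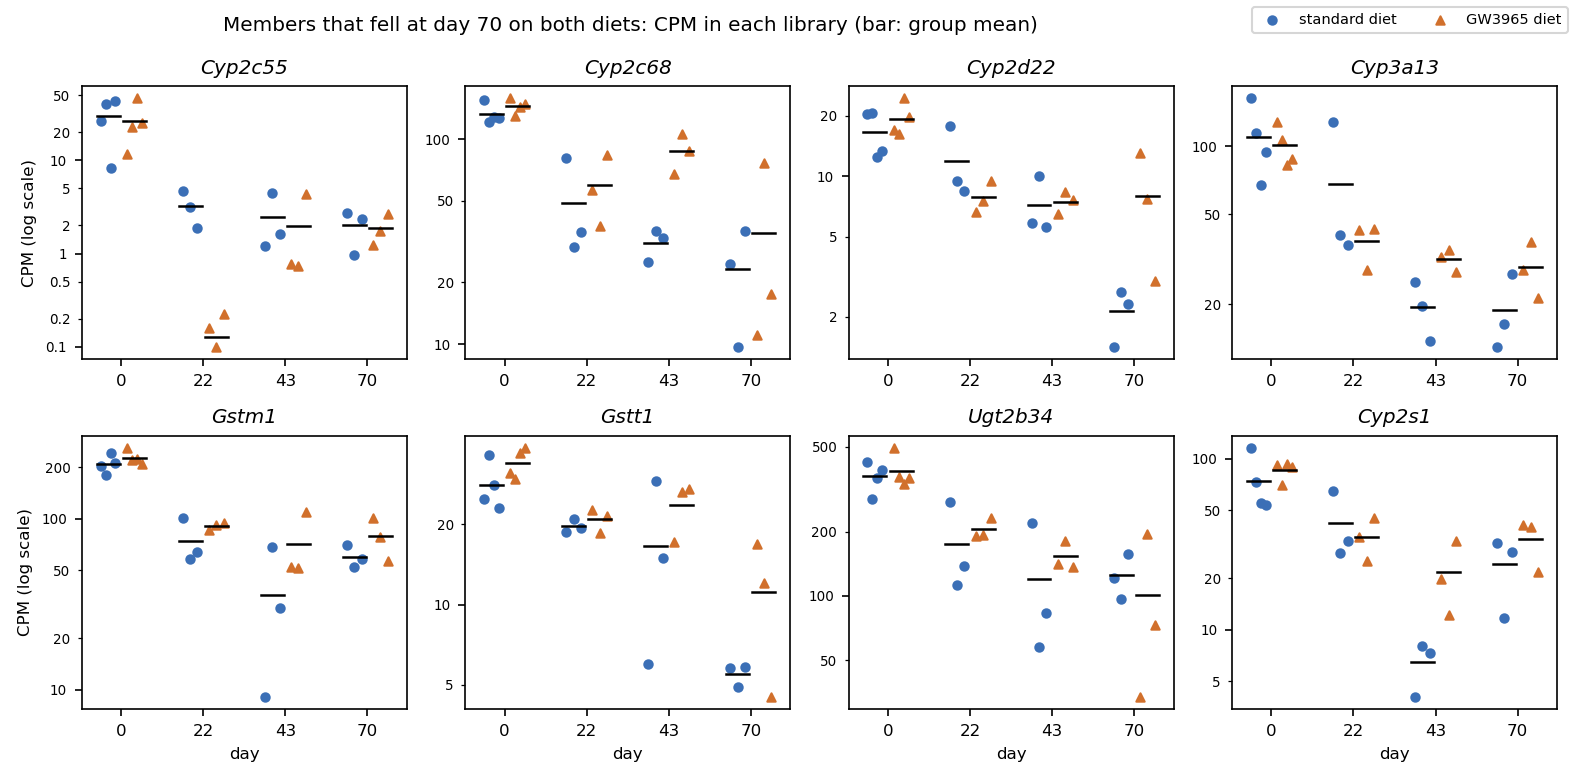
CPM (log scale) of 8 members that fell at day 70 on both diets against day, with 1 point per library, blue circles for the standard diet, orange triangles for the GW3965 diet and bars for group means. Values under 0.1 CPM are drawn at 0.1. Cyp2c55 is at its lowest on the GW3965 diet at day 22, and the day 70 libraries of the standard diet lie below all day 0 libraries of that diet for all 8 genes.

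Phase 2 losses were led by the mu and theta classes. Gstm1, a main mu-class transferase, measured 203, 180.5, 243 and 213 CPM at day 0 and 70.5, 52 and 58 CPM at day 70 on the standard diet (log2 fold change -1.79, SE 0.37, adjusted p = 0.00135), and 259, 219.9, 224 and 209 and 102, 78.8 and 56.4 CPM on the GW3965 diet (log2 fold change -1.79, SE 0.38, adjusted p = 0.00257). No day 70 library reached a day 0 library on either diet. In the cluster of 7 mu-class genes on chromosome 3 (chr3:107895821-108044894), 5 fell on the standard diet and 6 on the GW3965 diet. Gstm3 and Gstm6 were among them on both (-1.55 and -1.01 on the standard diet, -1.77 and -1.63 on the GW3965 diet), and Gstm7 on the GW3965 diet alone passed the test (-1.35, adjusted p = 0.014, against -0.58, adjusted p = 0.215). Gstt1, a theta-class gene that handles small halogenated compounds, went from 24.8, 36.3, 28.2 and 23 to 5.78, 4.92 and 5.83 CPM (log2 fold change -2.34, SE 0.41, adjusted p = 0.0004) on the standard diet. Its GW3965 values went from 31, 29.7, 37 and 38.5 to 16.9, 12 and 4.52 CPM (log2 fold change -1.71, SE 0.41, adjusted p = 0.00585). Gstt3 also fell on both diets (-0.67 and -0.94). Ugt2b34, the most abundant glucuronosyltransferase, measured 424, 284, 358 and 389 CPM at day 0 and 122, 96.5 and 158 CPM at day 70 on the standard diet (log2 fold change -1.54, SE 0.48, adjusted p = 0.0174), and it fell on the GW3965 diet as well (-1.92, adjusted p = 0.00975). Calls that were lost without 1 library were those of Ugt2b34 (standard replicate 1 or 2 of day 70, or GW3965 replicate 3), Gstm3 (standard replicate 2, or GW3965 replicate 1 or 3) and Gstm7 (GW3965 replicate 1). The standard-diet calls of Gstm6 and Gstt3 were lost in 5 and 6 of 7 such fits, and the GW3965 call of Gstt3 without replicate 1 or 3. Colonocyte markers were lower in the same libraries, with 5 of 10 falling and 1 rising on each diet, and their part in these losses was not tested.

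Of the pi class, Gstp3 rose on both diets at day 70. Gstp1, the most abundant, did not pass the test at day 70 on either diet (-0.05 and -0.39, adjusted p = 0.852 and 0.132), with 95.6 ± 16.6 CPM at day 0 and 92.4 ± 6.51 CPM at day 70 on the standard diet. A p above the threshold does not show that the levels were equal. The change of Gstp3 was called on both (log2 fold change 1.55, SE 0.37, adjusted p = 0.00354 on the standard diet and log2 fold change 1.51, SE 0.38, adjusted p = 0.00857 on the GW3965 diet). Its values on the standard diet were 2.07, 1.89, 3.66 and 1.98 CPM at day 0 and 10.6, 5.79 and 4.52 CPM at day 70, which did not overlap, and the call was lost without replicate 1 of day 70. Gstp1 and Gstp2 share many words (61.5% and 39.7% of their own), and Gstp3 does not (99.5%).

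The rising members included all alpha-class genes. Gsta4, which conjugates 4-hydroxynonenal, a product of lipid peroxidation, had 15.4, 12.7, 18.7 and 20.1 CPM at day 0 on the standard diet, 99.5, 146 and 76.4 CPM at day 43 and 139, 188 and 197 CPM at day 70 (log2 fold change 3.43, SE 0.59, adjusted p = 0.000358 for day 70). The GW3965 groups had 21.3, 20.1, 26.4 and 27 CPM at day 0 and 349.8, 22.5 and 390.3 CPM at day 70 (log2 fold change 3.23, SE 0.60, adjusted p = 0.000943). Here replicate 2 of day 70 stayed within the range of day 0, while the other 2 libraries were over 300 CPM. Gsto1 went from 318, 215, 376 and 381 to 906, 690.2 and 1705 CPM on the standard diet (log2 fold change 1.82, SE 0.52, adjusted p = 0.0112) and from 384, 280.0, 258 and 289 to 1565, 225 and 2720.4 CPM on the GW3965 diet (log2 fold change 2.14, SE 0.53, adjusted p = 0.00719). Both Gsto1 calls were lost without replicate 3 of day 70 of the diet concerned. The share of Gsto1 in all phase 2 TPM was 20.1% to 27.8% at day 0 and 23.8% to 72.0% at day 70. Cyp4f39, a fatty acid hydroxylase of the epidermal barrier, had 0.612, 0.189, 0.213 and 0.446 CPM at day 0 and 4.89, 19.5 and 13.9 CPM at day 70 on the standard diet (log2 fold change 5.28, SE 1.00, adjusted p = 0.000737), and 68.2, 0.81 and 20.7 CPM at day 70 on the GW3965 diet (log2 fold change 5.58, SE 1.03, adjusted p = 0.0009). Cyp2f2, a P450 best known from airway club cells, rose on the standard diet from 16.5, 12.4, 10.6 and 13.7 to 65.8, 26.9 and 90.4 CPM (log2 fold change 2.31, SE 0.77, adjusted p = 0.0262). The GW3965 values of 137, 3.39 and 79.6 CPM did not pass the test (1.22, adjusted p = 0.28). The standard call of Cyp2f2 was lost when any day 0 library or replicate 3 of day 70 was left out.

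Low-level members of the Cyp2a, Cyp2b and Gsta groups rose with them. Cyp2b10, a target of the constitutive androstane receptor in liver, had 0.188, 0.331, 0 and 0 CPM at day 0 and 2.47, 5.53 and 6.3 CPM at day 70 on the standard diet (adjusted p = 0.0018). Cyp2a5 had no count in the 4 day 0 libraries of the standard diet and 12, 19 and 11 counts at day 70, which made it at least 4.59-fold higher when each day 0 library is set to a floor of 3 counts (adjusted p = 0.00461). Both were also called on the GW3965 diet (adjusted p = 0.0177 and 0.017), and Cyp2a5 had 8, 0 and 46 counts in the day 70 libraries. Gsta2 stood at 1.21, 2.7 and 1.82 CPM at day 70 on the standard diet, from 0, 0.0944, 0.17 and 0 CPM at day 0 (adjusted p = 0.00396). It shares words with Gsta1, of which only 7.14% are unique. Cyp2b10, Cyp2a5 and Gsta2 were near the floor in untreated colon and passed the low-count filter through later libraries. A fall from so low a level could hardly be called, which limits what their p-values show. Gsta1 rose on both diets at day 70 (0.92 and 1.56, adjusted p = 0.037 and 0.0033), and Gsta3 on the standard diet (1.02, adjusted p = 0.0236). Cyp2j6 also rose there (0.74, adjusted p = 0.0433). With GW3965 Ugt1a1, which conjugates bilirubin, and Cyp1b1 rose (1.44 and 2.46, adjusted p = 0.0443 and 0.0452). Cyp1b1 had 2, 11, 3 and 1 counts in the GW3965 libraries of day 0 and also passed the low-count filter through later libraries. The limit given for Cyp2b10, Cyp2a5 and Gsta2 therefore holds for Cyp1b1 too. The GW3965 calls of Cyp2a5 and Cyp2b10 were lost without replicate 3 of day 70, and that of Gsta2 without replicate 1. On the standard diet the calls of Gsta1, Gsta3 and Cyp2j6 were lost in 6, 5 and 6 of 7 fits without 1 library. That of Cyp1b1 was lost in 5 of 7. The Ugt1a1 values at day 70 were 61.9, 11.9 and 20.6 CPM against 15.5, 9.14, 19.4 and 11.2 CPM at day 0, so that 1 library carried most of the difference, and the call was lost without it (log2 fold change 0.43 without replicate 1) or without any of 3 day 0 libraries.

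**Figure D4:**
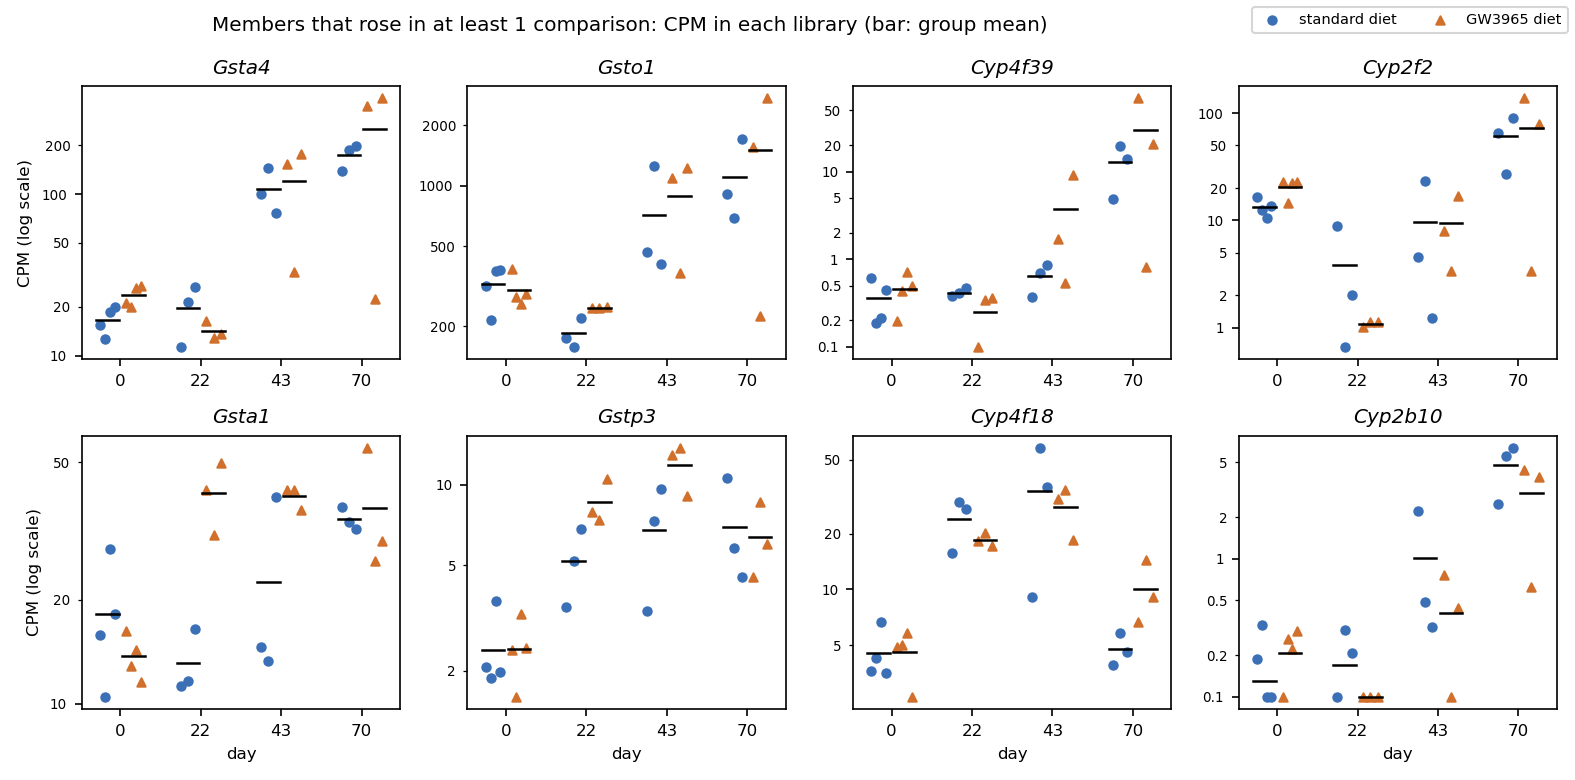
CPM (log scale) of 8 members that rose in at least 1 comparison against day, with 1 point per library, blue circles for the standard diet, orange triangles for the GW3965 diet and bars for group means. Values under 0.1 CPM are drawn at 0.1. For Gsta4, Gsto1, Cyp4f39 and Cyp2f2, 1 GW3965 library of day 70 (replicate 2) lies far below the other 2, while Cyp4f18 is highest at days 22 and 43.

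The library that stayed low for these genes was the one with few stratified epithelium transcripts. Replicate 2 of the GW3965 diet at day 70 had 96.1 TPM of the 10 markers, where the other 5 day 70 libraries had 2894 to 20368 TPM. In that library Gsta4 had 22.5 CPM, Gsto1 225 CPM, Cyp4f39 0.81 CPM and Cyp2f2 3.39 CPM. At day 43, where the markers summed to 294 to 3935 TPM, the same order was seen on the GW3965 diet: Gsta4 was at 154, 32.7 and 176 CPM in libraries with 1636, 294 and 3935 TPM of the markers. The standard libraries of day 43 kept this order in part: with 564, 1429.9 and 703 TPM of the markers, Gsta4 was at 99.5, 146 and 76.4 CPM and Cyp2f2 at 4.57, 23.1 and 1.23 CPM, highest in the library richest in markers and not ordered by them in the other 2. Within the other 5 day 70 libraries Cyp4f39 kept the order of the markers, while Gsta4, Gsto1 and Cyp2f2 did not. On the standard diet, with 2894, 4953 and 4859.6 TPM of the markers, Gsto1 was at 906, 690.2 and 1705 CPM. All 10 markers rose at day 70 on both diets. The falling gene Gstm1 stood at 102, 78.8 and 56.4 CPM in the GW3965 libraries of day 70, below day 0 in all 3. Gsta1 and Gstp3 had 55, 25.9 and 29.5 and 4.5, 8.62 and 6 CPM there, and were above their day 0 values in the library with few markers as well. The part of the stratified epithelium in the rise of Gsta4, Gsto1, Cyp4f39, Cyp2f2, Cyp2b10, Cyp2a5 and Gsta2 was not tested.

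**Figure D5:**
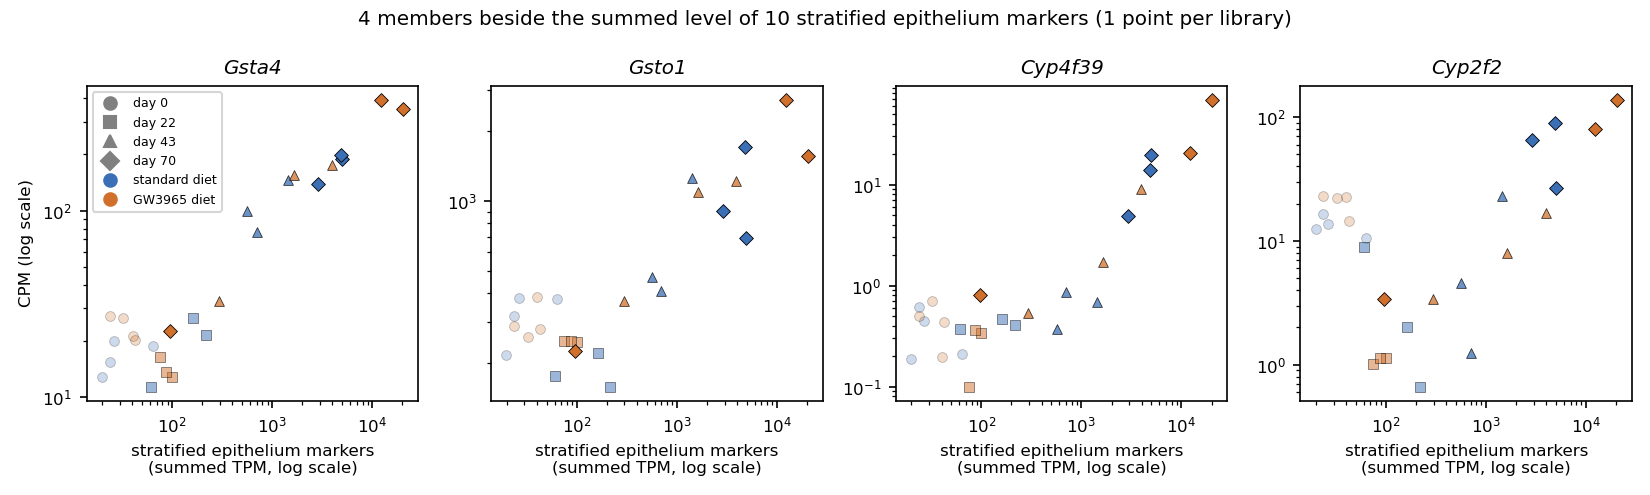
CPM (log scale) of Gsta4, Gsto1, Cyp4f39 and Cyp2f2 against the summed TPM (log scale) of 10 stratified epithelium markers, with 1 point per library, shapes for days and colours for diets. The highest points of all 4 genes are day 70 libraries rich in the markers, and the day 70 library with 96.1 TPM of the markers lies with those of days 0 and 22 for Gsta4, Gsto1 and Cyp4f39.

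Day 22, after 1 cycle of DSS, gave fewer calls. On the standard diet 1 member rose and 4 fell, where 6.19% of all genes rose and 1.54% fell. On the GW3965 diet 3 rose and 7 fell, against 9.13% and 3.46%. Cyp4f18, a leukocyte enzyme that hydroxylates leukotriene B4, was the gene that rose on both. Its values on the standard diet were 3.63, 4.25, 6.64 and 3.52 CPM at day 0 and 15.7, 29.5 and 27.2 CPM at day 22 (log2 fold change 2.35, SE 0.45, adjusted p = 0.00391). Its GW3965 values went from 4.91, 5.02, 5.82 and 2.63 to 18.2, 20.1 and 17.3 CPM (log2 fold change 1.92, SE 0.45, adjusted p = 0.00866). Of 6 immune cell markers 4 rose on each diet at day 22, and their sum was 303 to 640.0 TPM at day 0 and 747 to 1556 TPM at day 22. The part of immune cells in the rise of Cyp4f18 was not tested. Cyp2c55 and Cyp2c69 fell on both diets at day 22, with Cyp2c55 at -2.78 on the standard diet (adjusted p = 0.0164) and at a fitted -7.06 on the GW3965 diet (adjusted p = 0.000111), which its 3, 0 and 5 counts leave imprecise. The standard call of Cyp2c55 was lost without replicate 3 of day 22, that of Gstm6 without replicate 2, and those of Cyp2c69 and Gstm1 in 5 of 7 fits without 1 library. Gstm1 and Gstm6 fell on the standard diet (-1.29 and -1.70, adjusted p = 0.0353 and 0.00883). Both missed the threshold on the GW3965 diet (-0.96 and -0.86). Cyp2c65, Cyp2d26, Cyp2f2, Cyp2w1 and Cyp3a13 fell there, Cyp2f2 from 20.6 ± 4.16 to 1.09 ± 0.0647 CPM (log2 fold change -3.33, SE 1.00, adjusted p = 0.0325). Gsta1 and Gstp3 rose at day 22 on the GW3965 diet (1.37 and 1.67, adjusted p = 0.0146 and 0.00831), Gsta1 from 16.2, 12.9, 14.3 and 11.5 to 41.6, 30.7 and 49.7 CPM. On the standard diet Gsta1 stood at 15.8, 10.5, 28.1 and 18.2 CPM at day 0 and 11.3, 11.7 and 16.5 CPM at day 22 (-0.58, adjusted p = 0.368). The standard count was 2 without replicate 2 or 3 of day 22, 3 without day 0 replicate 1 of 22 diet days or replicate 2 of 43 diet days, and 8 without replicate 1 of day 22. The GW3965 count was 4 without replicate 1 of day 22 and 6 without replicate 2 of day 22 or day 0 replicate 2 of 43 diet days, and the calls of Cyp3a13, Cyp2w1 and Cyp2f2 were lost in 7, 6 and 4 of 7 such fits. The calls of Cyp2c65, Cyp2d26 and Gsta1 were lost without replicate 1 of day 22, that of Cyp2d26 also without replicate 2, and that of Gsta1 also without day 0 replicate 2 of 43 diet days, the library whose labels disagree. Compared with the 2 day 0 libraries of 22 diet days alone, 2 members were called on each diet, and with only the compared groups in the fit, 0 were called on the standard diet and 24 on the GW3965 diet. The shares of all genes called in these fits, and in those without 1 library, are not given. The changes in number are therefore not results about the members.

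At day 43 the calls depended on the ribosomal covariate. With it, 0 members were called on the standard diet and 0 on the GW3965 diet, where edgeR called 0.0% (higher) and 0.0% (lower) of all genes on the standard diet and 0.897% and 0.041% on the GW3965 diet. At an unadjusted p under 0.05 there were 9 of the 62 members on each diet, against 8.02% of all genes on the standard diet and 13.6% on the GW3965 diet, the latter near the share of the members. DESeq2 called 2 and 1, against 1.27% and 3.47%. Without the covariate, 33 of the 62 members were called on the standard diet (12 higher and 21 lower), where 55.1% of all genes were called, so that their share was near that of the background. For the GW3965 diet the same fit called 21 (9 higher and 12 lower), against 45.3% of all genes. Every day 43 library had a higher ribosomal percentage than every day 0 library. The measured values themselves were far from day 0 for several members. Cyp2s1 was at 4.07, 8.03 and 7.34 CPM against 115, 72.7, 54.9 and 53.2 CPM at day 0 on the standard diet. Cyp3a13 was at 25.1, 19.8 and 13.7 CPM there, and Cyp4f18 at 9.04, 57.9 and 35.7 CPM. The Gstm1 value of 9.11 CPM came from replicate 1, the library with a RIN of 2.6. Gstt1 (5.97 CPM) and Ugt1a6a (0.218 CPM) were also lowest there among the 3. Other members were highest in that library. Ugt2b34 was at 221 CPM, against 57.8 and 83.2 CPM in replicates 2 and 3, and Cyp2j6 at 135 CPM, against 39.2 and 59.1 CPM.

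The diet itself, which was the question of the study, gave few calls among the members. A count of 0 does not show that the diet had no effect. In untreated colon 0 members were called, against 0.0293% of all genes, at day 22 0 against 0.135%, and at day 43 0 against 0.0293%. At an unadjusted p under 0.05 edgeR gave 1, 10 and 14 of the 62 members, against 1.94%, 9.96% and 8.65% of all genes. DESeq2 called 1, 4 and 2 with adjustment, against 0.158%, 1.78% and 0.423%. At an unadjusted p the 1 member of day 0 is near the background. At day 70 1 member was higher on the GW3965 diet and 0 were lower, where 1.75% of all genes were higher. This was Cyp2d22, at 1.42, 2.66 and 2.33 CPM on the standard diet and 13.1, 7.74 and 3 CPM on the GW3965 diet (log2 fold change 1.83, SE 0.44, adjusted p = 0.0402). The groups did not overlap, but leaving out GW3965 replicate 1 or any of the 3 standard libraries ended the call, and 3 members were called without GW3965 replicate 2 or 3. The shares of all genes in those fits are not given. The median log2 fold change of the members at day 70 was 0.29, against 0.02 for all genes. Cyp2w1, a P450 of fetal and tumour tissue of the gut, came closest at day 0, with 3.34, 2.83, 2.3 and 2.18 CPM on the standard diet and 8.35, 6.93, 11.2 and 9.54 CPM on the GW3965 diet (log2 fold change 1.79, SE 0.33, adjusted p = 0.0674). It was also above the standard diet in every library of days 43 and 70, with 2.05, 1.61 and 2.66 and 4.91, 6.26 and 4.24 CPM at day 70 (adjusted p = 0.136 and 0.126), and not at day 22 (log2 fold change -0.10). Cyp2c55 at day 22 was lower on the GW3965 diet (log2 fold change -4.30, SE 0.90, adjusted p = 0.0593), which missed the threshold. Gsta1 was higher on the GW3965 diet in all libraries of day 22 (log2 fold change 1.53, SE 0.37, adjusted p = 0.119) and also missed it.

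Whether the diet effect at a later day differed from that of untreated colon was tested by interaction terms. For days 22, 43 and 70 edgeR called 0 members in each, against 0.0234%, 0.0% and 0.0% of all genes. At an unadjusted p under 0.05 there were 4, 5 and 4 of the 62 members, against 6.24%, 4.37% and 12.7% of all genes, and DESeq2 called 3, 0 and 0, against 0.598%, 0.0762% and 1.83%. The larger number of falling members on the standard diet at day 70 is therefore not shown to be a difference between the diets.

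The rest of the pathway was followed with 79 genes listed for their roles, of which 78 were tested. At day 70 on the standard diet 14 rose and 27 fell, and on the GW3965 diet 11 rose and 18 fell. The rising counts are near the shares over all genes, 18.1% and 14.4%, while 15.1% and 7.43% of all genes fell. Among the receptors, Nr1h3 (LXRα, a liver X receptor and so a target of GW3965, as is LXRβ) stood at 28.2 ± 2.55 CPM at day 0 and 6.91 ± 1.03 CPM at day 70 on the standard diet (log2 fold change -2.05, SE 0.27, adjusted p = 5.52e-05) and fell on the GW3965 diet (log2 fold change -1.29, SE 0.27, adjusted p = 0.00215). Nr1i2, the pregnane X receptor, fell on both (log2 fold change -1.03, SE 0.33, adjusted p = 0.0222 on the standard diet and log2 fold change -1.23, SE 0.35, adjusted p = 0.0156 on the GW3965 diet). Ahr, the receptor for dioxin-like compounds, and Nfe2l2, which encodes NRF2, did not pass on either diet, with log2 fold changes of 0.26 and 0.62 for Ahr and 0.12 and 0.10 for Nfe2l2. Por, the reductase that supplies electrons to the P450 enzymes, had log2 fold changes of 0.25 and -0.01 at day 70 and was not called, though it fell at day 22 on the GW3965 diet (log2 fold change -0.79, SE 0.24, adjusted p = 0.0363), a call lost in 6 of 7 fits without 1 library. The calls of Nr1i2 were lost in 3 of 7 such fits on the standard diet and in 1 of 7 on the GW3965 diet. The sulphotransferase Sult1a1, another phase 2 enzyme, fell as well, with 205 ± 63.7 CPM at day 0 and 12 ± 2.75 CPM at day 70 on the standard diet (log2 fold change -4.07, SE 0.45, adjusted p = 1.73e-05), and Sult1c2 fell with it (log2 fold change -1.83, SE 0.47, adjusted p = 0.00546). The epoxide hydrolase Ephx2 and the carboxylesterase Ces1d fell at day 70 on the standard diet (log2 fold changes -1.86 and -2.72), and both were higher on the GW3965 diet than on the standard diet at day 70 (log2 fold change 0.94, SE 0.23, adjusted p = 0.045 for Ephx2 and log2 fold change 1.86, SE 0.44, adjusted p = 0.0402 for Ces1d). Neither call held with only these 2 groups in the fit, and they were lost in 5 and 3 of 6 fits without 1 library. Abcb1a, which encodes the efflux pump P-glycoprotein, fell on both diets at day 70 (log2 fold changes -2.83 and -2.31). On the other side, genes of glutathione supply and the NRF2 response rose, 5 of 9 on the standard diet and 4 of 9 on the GW3965 diet, and 0 fell. Slc7a11, the cystine transporter that feeds glutathione synthesis, stood at 4.57 ± 1.76 CPM at day 0 and 36.5 ± 8.98 CPM at day 70 on the standard diet (log2 fold change 2.99, SE 0.46, adjusted p = 0.000169), and Hmox1, haem oxygenase 1, rose on both diets at days 22 and 70 (log2 fold changes 1.98 and 1.69 on the standard diet, 1.32 and 1.48 on the GW3965 diet). With only the compared groups in the fit, the GW3965 calls of Nr1h3, Nr1i2, Abcb1a and Hmox1 at day 70 were lost. So was the standard call of Hmox1 at day 22. Its GW3965 call at day 22 was lost in 2 of 7 fits without 1 library.

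The Ugt1a genes need a separate word, since their transcripts share the exons of the C-terminal part, and between 15.8% and 47% of the words of a gene were its own. Their summed CPM was 171 ± 41 at day 0 and 114 ± 39.2 at day 70 on the standard diet, and 193 ± 30.5 and 153 ± 27.9 on the GW3965 diet. Ugt1a8 and Ugt1a9 had 23, 5.62 and 1.02 CPM and 20.5, 0 and 27.1 CPM in the standard libraries of day 43, and at most 0.338 and 0.424 CPM in the other 23 libraries. Ugt1a7c had 10.2, 43.6 and 26.3 CPM in those 3 libraries against 145, 90.5, 157 and 185 CPM at day 0. These 3 libraries had RIN values of 2.6 to 8.4, and the part of RNA quality was not tested.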

How the data were processed

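Per the labels, the authors quantified the RNA libraries with kallisto against GRCm38 (version not given in the sources used here). The deposited files give estimated counts and TPM values (length-scaled abundances) per transcript, and 97.75% of the 119414 transcripts were matched to genes. Both units were summed by gene, and the summed counts were rounded. Counts were tested with edgeR 4.0.16 (R 4.3.3): TMM normalization, filterByExpr (17063 genes kept), 8 diet-by-day groups plus the ribosomal protein percentage as an additive covariate (the study used an interaction), and the quasi-likelihood F-test with Benjamini-Hochberg adjustment over all genes. Every adjusted p is two-sided and comes from this fit, and a gene was called at an adjusted p under 0.05. CPM are TMM-normalized. The floor of 3 counts covers counting error only. Unmatched transcripts took 0.615% to 0.999% of the counts.

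The members and gene lists were chosen with earlier results of these data known. Named were up to 15 called members per direction and comparison, the most abundant member of each family, a list of well-known members, and the leading called genes of the other pathway lists. Beyond this rule, Cyp2c40, Cyp2d9, Cyp2d10, Gstp2, Ugt1a8 and Ugt1a9 were chosen after their values were seen. The study's sources differ on whether a library is 1 mouse or a pool of mice, and p-values measure the spread between libraries. Alternatives were DESeq2 1.42.0, RLE size factors, no filter, only the groups compared, day 0 libraries of matching diet time, no ribosomal covariate, a replicate block, and leaving out each library. The scripts were tested on simulated data.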

Additional observations from a re-analysis of the deposited data

Results flagged for a closer look

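Of 87 tests of a single library far from the other 3 of its day 0 group, 7 passed Dixon's 95% limit, where chance flags about 1 in 20 groups. In the GW3965 day 0 group, replicate 2 of 22 diet days had 14.4 CPM of Cyp2f2 and 70.1 CPM of Cyp2s1, both below the others. Replicate 1 of 22 diet days had 61.7 CPM of Cyp4f16 and 493 CPM of Ugt2b34, both above the others, and replicate 2 of 43 diet days had 10.7 CPM of Ugt1a6a, below them. In the standard day 0 group, replicate 1 of 43 diet days had 3.66 CPM of Gstp3, above the others, and replicate 2 of 22 diet days had 22.0 CPM of Gstt2, below them.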

How the results depend on the processing

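Of the 74 single-gene results, none changed direction under any alternative run; their alternative values kept the call 868 times and lost it 181 times. The counts of called members on the standard diet at day 70 stayed within 1.5 times of 40 under every alternative. With DESeq2 the diet counts were 1, 4, 2 and 5 at days 0, 22, 43 and 70. The standard counts were 9 at day 22 and 2 at day 43, the GW3965 count 1 at day 43, and the day 22 interaction 3. Over all genes DESeq2 called 1170 for diet at day 70 and 2030 for the standard diet at day 22. The 5 and 9 members are near the shares that these numbers make of the 17063 genes tested. Without the ribosomal percentage, 33 members were called at day 43 on the standard diet, 21 on the GW3965 diet and 1 between the diets. With only the groups compared in the fit, the counts were 0 for diet at day 70, 0 for the standard diet at day 22, and 24, 12 and 1 for the GW3965 diet at days 22, 43 and 70. Day 0 libraries of 22 diet days alone gave 2 members on each diet at day 22, and no filter gave 0 for diet at day 70. The causes were not tested. Leaving out 1 library gave 0 to 1 for diet at day 43, 0 to 3 for diet at day 70, 2 to 8 and 4 to 9 for the standard and GW3965 diets at day 22, 16 to 40 for the GW3965 diet at day 70, and 0 to 1 for the day 70 interaction. No share of all genes is given for the fits without 1 library, of the compared groups alone, with fewer day 0 libraries or without the filter. Changes in these counts are therefore not results about the members.

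The replicate numbers do not pair the libraries: the deviations of same-numbered libraries correlated from -0.345 to 0.274 over 13 pairs, and 2 pairs were over 0.1. With the replicate block, 0 members were called for diet at day 70 and 22 for the GW3965 diet at day 70. The shares of all genes called with the block are not given either, so these counts are not results about the members. Estimated counts of 3 or fewer in a library, equal to 0.0932 to 0.203 CPM, are at the floor, which limits what can be said of the 57 untested members.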
